A study of Mus musculus with 16 samples.

Results

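The cytosolic sulfotransferase genes Sult2a1, Sult2a2, Sult2a3, Sult3a1, Sult5a1, Sult1a1, Sult1b1 and Sult1d1 are described here across tumours and non-tumour livers of MYC/REG3A and MYC transgenic mice. They were chosen by the fall of the Sult2a genes and Sult3a1 in tumours relative to the paired non-tumour liver on these same arrays, together with relatives of the same family, and they are 8 of 22180 genes that had an array row with a single gene symbol. Each had 1 such row, and all 8 were among the 13555 genes tested, meaning genes above the median of their array on at least 4 of the 16 arrays. The tumour changes of the 8 genes are therefore a description, and no p-value is attached to them.

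Cytosolic sulfotransferases move a sulfonate group from the donor PAPS onto hydroxyl or amino groups of small molecules, which makes these more soluble in water and easier to excrete. The Sult2a enzymes act on hydroxysteroids such as dehydroepiandrosterone and on bile acids, Sult3a1 is known in mouse as an enzyme for amines, and the Sult1 enzymes act mainly on phenols, catechols and thyroid hormones. In mouse liver the Sult2a genes and Sult3a1 are known as female-biased genes that follow the sex-specific pattern of growth hormone release.

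The MYC/REG3A mice had the genotype MYC+/+, REG3A+/+ and the MYC mice MYC+/+, REG3A-/-. Mice of both genotypes carried a c-MYC oncogene driven in liver by woodchuck hepatitis virus sequences, so no group without the MYC transgene was compared; the promoter of the REG3A transgene is not given in the sources used here. All were on the C57BL/6J background and were killed at 18 months of age, and their sex is not given in the labels. Each of 4 MYC/REG3A and 4 MYC mice gave 1 tumour sample and 1 paired sample of non-tumour liver, both snap frozen, and 200 ng of total RNA was labelled for each of the 16 arrays, which fall into 4 groups of 4. In such bulk tissue, fewer cells of a type and less RNA per cell cannot be told apart.

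Levels are log2 RMA values, an expression scale on which 1 unit is a doubling, and each array row has its own background, so levels are compared between samples and not between genes. A value below the lower quartile of its array, which lay between 3.71 and 3.77, is called near background. Rows of 6 Y-linked genes ran from 2.89 to 5.17 over the 16 arrays. Of these, Eif2s3y, Kdm5d, Uty and Usp9y were near background on all 16 arrays. Zfy2 reached at most 3.99, and the Sry row ran from 4.74 to 5.17. The hepatocyte markers Alb, Apoa1, Apob, Ttr, Fga, Ahsg and Tat lay between 10.4 and 13.57 on every array, and Serpina1a reached down to 8.59. On the first principal component, which held 49.2% of the variance, the tumours of MYC/REG3A mice 2 and 4 stood apart at -4.2 and 2.6, whereas the other 6 tumours lay between 32.7 and 42.3 and the non-tumour livers between -31.0 and -26.4. Over the tested genes, the SD of the tumour change was 0.336 in MYC/REG3A mouse 2 and 0.429 in MYC/REG3A mouse 4, against 0.624 to 0.729 in the other 6 mice. The row of Myc, which does not separate the mouse gene from a transgene here, read 7.1, 9.37, 7.26 and 7.58 in MYC/REG3A tumours 1 to 4 and 6.99, 9.24, 7.69 and 7.97 in the non-tumour livers of those mice. It read 7.09, 7.24, 7.17 and 6.84 in MYC tumours and 7.92, 7.78, 7.61 and 7.41 in MYC non-tumour livers, so MYC/REG3A mouse 2 had the highest Myc value in both of its samples. The tumour change of Myc was -0.14 in MYC/REG3A mice (SE 0.127, limma adjusted p = 0.485) and -0.59 in MYC mice (SE 0.127, limma adjusted p = 0.00673).

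In the RefSeq annotation of mouse assembly GRCm38.p6 the 8 genes lie in 5 places. Sult2a2, Sult2a1 and Sult2a3 belong to an unbroken run of Sult2a genes on chromosome 7, in the order Sult2a5, Sult2a2, Sult2a1, Sult2a4, Sult2a3, Sult2a6, Sult2a8 and Sult2a7. Sult3a1 lies beside Sult3a2 on chromosome 10, Sult1b1 and Sult1d1 lie beside each other and Sult1e1 on chromosome 5, Sult1a1 lies elsewhere on chromosome 7, and Sult5a1 lies on chromosome 8. The Sult2a genes are close paralogs, so an array row named for one of them may also take up transcripts of another, and the Sult2a values below are uncertain as values of single genes. The promoters of Sult2a3 and Sult3a1 are shown because these genes, from different chromosomes, were low together in tumours. Each runs from 250 bases before to 50 bases after the annotated start, is read 5′ to 3′ on the strand of the gene, and has the matches to searched motifs in capitals. Sult2a3 is at chr7:14122999-14123298 on the minus strand, and Sult3a1 is at chr10:33857472-33857771 on the plus strand.
Sult2a3: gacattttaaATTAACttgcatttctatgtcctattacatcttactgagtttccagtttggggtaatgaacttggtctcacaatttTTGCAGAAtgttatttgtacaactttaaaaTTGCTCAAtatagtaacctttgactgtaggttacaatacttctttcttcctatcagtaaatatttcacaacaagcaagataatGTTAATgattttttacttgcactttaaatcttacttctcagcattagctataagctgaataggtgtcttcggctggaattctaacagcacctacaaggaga
Sult3a1: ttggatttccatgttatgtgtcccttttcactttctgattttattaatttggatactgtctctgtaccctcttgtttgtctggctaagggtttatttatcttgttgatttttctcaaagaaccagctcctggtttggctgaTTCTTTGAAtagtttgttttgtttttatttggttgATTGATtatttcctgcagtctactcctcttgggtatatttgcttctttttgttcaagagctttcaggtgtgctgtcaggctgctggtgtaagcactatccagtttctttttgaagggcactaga

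Promoters were at hand for 6 of the 8 genes, 7 promoters in all, and both strands were searched for 9 motifs. Sult2a3 held a pair of C/EBP sites (TTGCNNAA) and a pair of HNF1 core motifs (GTTAAT), the latter beginning at -240 and -51 from the start. These motifs were found in 10.8% and 7.1% of the 32851 RefSeq promoters of the same length. Shares here count promoters with at least 1 match, so they are no background for a pair. Sult3a1 held a STAT5 site (TTCNNNGAA, which reads the same on both strands, in 8.3% of promoters) and an HNF6 and CUX2 core (ATCAAT, in 7.54%). Sult1a1 and Sult1d1 each held an HNF1 core motif, and Sult1d1 also held a FOXA core (TGTTTAC, in 3.65%). The letters of a TATA box (TATAAA, in 13.6%) matched in Sult1d1 on the opposite strand, past the start at 5 to 10. Of the promoters of Sult1b1, 1 held nuclear receptor core motifs beginning at -123 and at 38 (AGGTCA, in 16.3%) and another an HNF4 alpha core (CAAAGTCCA, in 0.475%). None of the 7 promoters held the E-box that MYC binds with MAX (CACGTG, in 7.15%). These are matches of letters and not shown sites. The promoter of Sult2a3 aligned with those of its neighbours Sult2a4, Sult2a5 and Sult2a6 at 92.2% identity over 243 columns, 87.4% over 277 columns and 80.8% over 281 columns.

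By their mean tumour change, the Sult2a genes and Sult3a1 were lowered more than the other 4 genes in both genotypes, and Sult2a1, Sult2a3 and Sult3a1 were near background in at least 3 of the 4 MYC tumours. Ranked from the lowest tumour change over all 13555 tested genes in MYC mice, Sult2a2 was number 4, Sult3a1 number 5, Sult2a1 number 6 and Sult2a3 number 18. In MYC/REG3A mice Sult3a1 was number 2, Sult2a3 number 10, Sult2a1 number 15 and Sult2a2 number 29. Of the tumour changes of single mice, 30 of 32 lay below 0 in the MYC/REG3A genotype and likewise 30 of 32 in the MYC genotype. This count follows in part from the choice of the genes, and related genes of a mouse are not separate observations. Over all tested genes, the mean change was above 0 in 47.2% in MYC/REG3A and 47.0% in MYC mice. The means of all 8 genes had 1 order, highest in MYC/REG3A non-tumour liver, then MYC non-tumour liver, then MYC/REG3A tumours, and lowest in MYC tumours. Neighbours in that order overlapped in their values for each of the 8 genes.

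**Figure D1:**
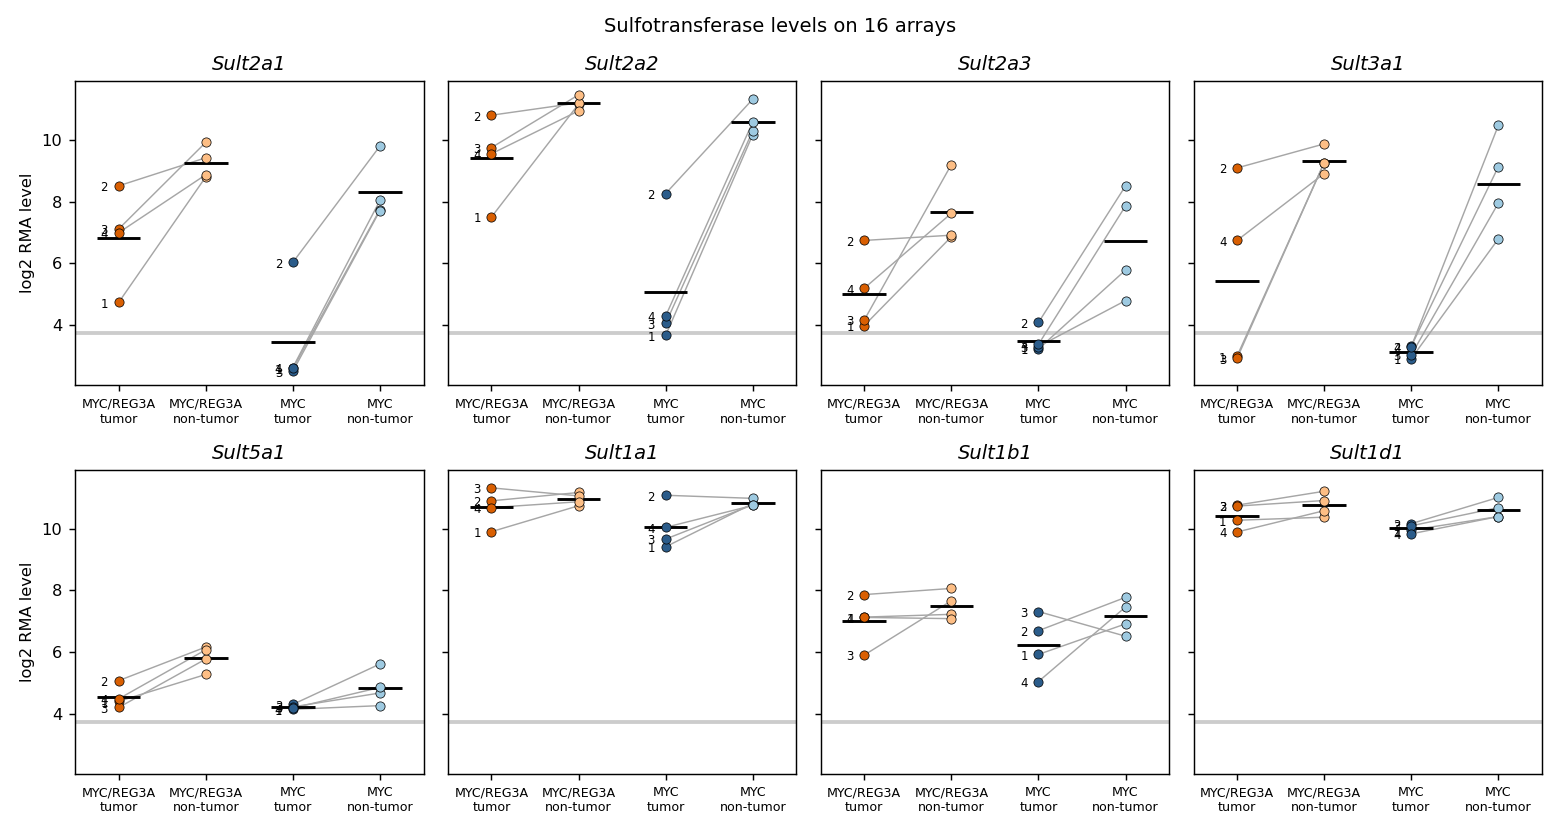
Log2 RMA level (y axis) of the 8 sulfotransferase genes on the 16 arrays, 1 panel per gene, with 1 point per array, a black bar at each group mean, a grey line joining the samples of a mouse, and the mouse number beside each tumour point. The grey band spans the lower quartiles of the arrays, 3.71 to 3.77; Sult3a1 lies below it in all 4 MYC tumours and in MYC/REG3A tumours 1 and 3, while Sult1a1 and Sult1d1 stay far above it on all arrays.

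Sult2a1, an enzyme for hydroxysteroids and bile acids, had levels of 4.73, 8.51, 7.11 and 6.99 in the tumours of MYC/REG3A mice 1 to 4, against 8.8, 9.42, 9.92 and 8.87 in their non-tumour livers. In MYC mice 1 to 4 it had 2.59, 6.03, 2.5 and 2.62 in tumours, against 7.74, 9.8, 7.71 and 8.04 in non-tumour liver. Tumours and non-tumour livers did not overlap in either genotype, and MYC tumours 1, 3 and 4 were near background while MYC tumour 2 was not. The change was -2.42 (SE 0.435) in MYC/REG3A mice, which is 5.35-fold lower in tumours. In MYC mice it was -4.89 (SE 0.435), and with values near background set to the lower quartile of their array the tumours were at least 16.3-fold lower.

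Sult2a2, the neighbouring hydroxysteroid sulfotransferase gene, had 7.5, 10.8, 9.75 and 9.55 in MYC/REG3A tumours, against 11.16, 11.2, 11.46 and 10.94 in their non-tumour livers. MYC tumours had 3.66, 8.26, 4.05 and 4.29, against 10.17, 11.32, 10.29 and 10.58 in MYC non-tumour liver. The non-tumour livers lay within a narrow span in both genotypes, with means of 11.19 ± 0.213 in MYC/REG3A and 10.59 ± 0.518 in MYC mice (SD, n = 4 each), whereas the tumours spread over several units. The change was -1.79 (SE 0.598) in MYC/REG3A mice, 3.46-fold lower in tumours, and -5.52 (SE 0.598) in MYC mice. Since MYC tumour 1 was near background, the fall in MYC mice is a lower bound, at least 45.5-fold. MYC mouse 2 had the smallest fall of the MYC mice, -3.06 against -6.51 to -6.23 in the other 3, and MYC/REG3A mouse 2 the smallest of all, -0.4.

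Sult2a3, a further paralog of the cluster, had 3.98, 6.74, 4.16 and 5.19 in MYC/REG3A tumours, against 6.86, 6.91, 9.2 and 7.62 in their non-tumour livers. MYC tumours had 3.22, 4.08, 3.3 and 3.37, against 5.78, 8.51, 4.79 and 7.86 in MYC non-tumour liver. The non-tumour livers of this gene differed among mice by over 2 units in MYC/REG3A mice and by over 3 in MYC mice, and 3 of the 4 MYC tumours were near background. The change was -2.63 (SE 0.693) in MYC/REG3A mice, 6.17-fold lower in tumours, and -3.24 (SE 0.693) in MYC mice, at least 7.58-fold lower.

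Sult3a1, the amine sulfotransferase gene, had 2.99, 9.09, 2.92 and 6.74 in MYC/REG3A tumours, against 9.26, 9.87, 9.26 and 8.91 in their non-tumour livers. All 4 MYC tumours were near background, with 2.91, 3.31, 3.03 and 3.3, against 6.79, 9.13, 7.95 and 10.47 in MYC non-tumour liver. The MYC/REG3A tumours split: tumours 1 and 3 were near background, tumour 2 lay within the range of the non-tumour livers, and tumour 4 lay between. The tumour mean was 5.43 ± 3.017 in MYC/REG3A mice and 3.14 ± 0.199 in MYC mice (SD, n = 4 each). The change was -3.89 (SE 0.882) in MYC/REG3A mice, at least 11.3-fold lower in tumours, and -5.45 (SE 0.882) in MYC mice, at least 29.1-fold lower. By mouse, the MYC/REG3A change was -6.27 and -6.34 in mice 1 and 3, -0.78 in mouse 2 and -2.17 in mouse 4.

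**Figure D2:**
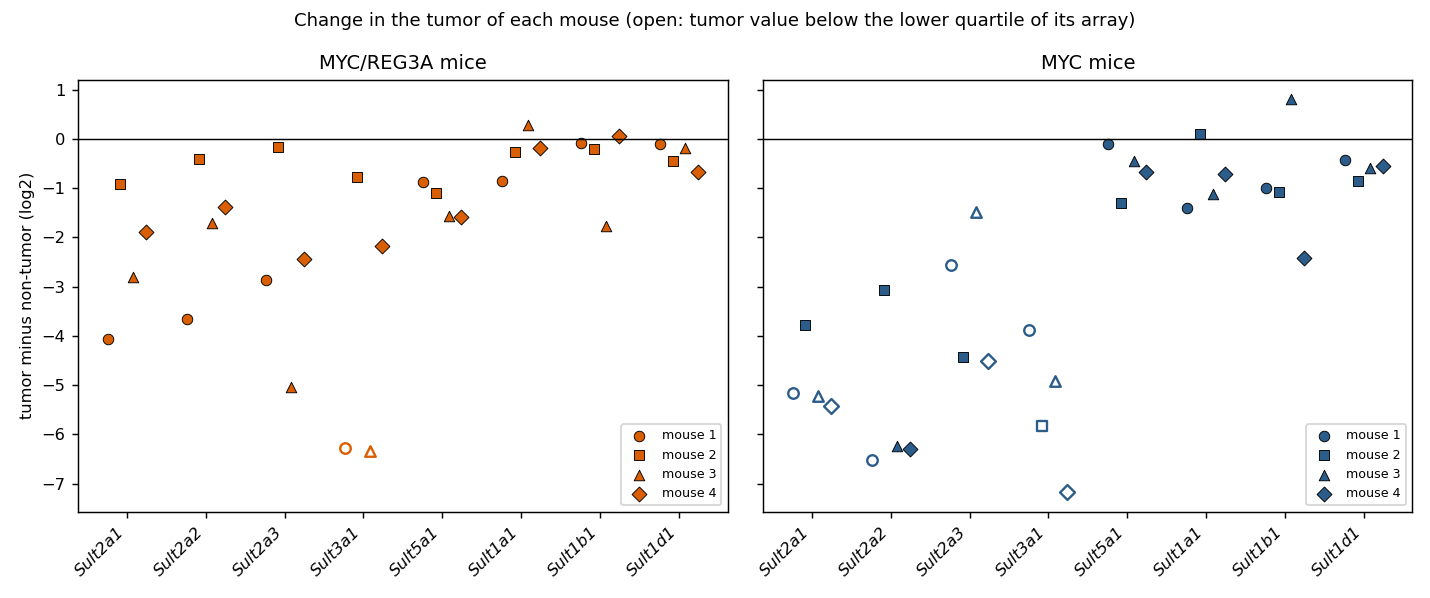
Tumour minus non-tumour difference (log2, y axis) of each mouse for the 8 genes (x axis), with MYC/REG3A mice on the left, MYC mice on the right and 1 symbol per mouse; open symbols mark tumour values near background. MYC/REG3A mouse 2 (squares, left) lies between -0.91 and -0.16 for the Sult2a genes and Sult3a1, whereas every MYC mouse lies at -1.49 or below for these 4 genes.

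Sult5a1 had 4.4, 5.07, 4.2 and 4.48 in MYC/REG3A tumours, against 5.27, 6.16, 5.77 and 6.07 in their non-tumour livers. MYC tumours had 4.14, 4.3, 4.22 and 4.18, against 4.26, 5.61, 4.67 and 4.85 in MYC non-tumour liver. These are low levels near the array medians of 4.9 to 4.97, the MYC/REG3A groups did not overlap, and the MYC groups overlapped through MYC non-tumour liver 1. Unlike Sult2a1, Sult2a2 and Sult2a3, Sult5a1 had the larger fall in MYC/REG3A mice, -1.28 (SE 0.19) or 2.43-fold lower in tumours. In MYC mice it was -0.64 (SE 0.19) or 1.55-fold. The paralog Sult2a4 (-1.02 in MYC/REG3A and -0.8 in MYC mice) had this order too. Sult2a5 read -1.82 in MYC/REG3A and -1.18 in MYC mice. Its order cannot be told, since all 4 MYC tumours, 2 MYC non-tumour livers and 2 MYC/REG3A tumours were near background.

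None of the values of the 3 Sult1 genes was near background. Sult1a1, a phenol sulfotransferase, had 9.9, 10.9, 11.32 and 10.68 in MYC/REG3A tumours, against 10.74, 11.17, 11.06 and 10.87 in their non-tumour livers, and 9.41, 11.08, 9.66 and 10.04 in MYC tumours, against 10.81, 10.98, 10.77 and 10.75 in MYC non-tumour liver. Its groups overlapped in both genotypes, with changes of -0.26 (SE 0.235) in MYC/REG3A mice and -0.78 (SE 0.235) in MYC mice, and MYC/REG3A mouse 3 (0.27) and MYC mouse 2 (0.1) went the other way. Sult1d1, known in mouse for catecholamines and related phenols, had 10.27, 10.76, 10.73 and 9.89 in MYC/REG3A tumours, against 10.37, 11.21, 10.91 and 10.58 in their non-tumour livers, and 9.95, 10.16, 10.09 and 9.83 in MYC tumours, against 10.39, 11.01, 10.68 and 10.39 in MYC non-tumour liver. Its mean change was -0.35 (SE 0.12) in MYC/REG3A mice and -0.61 (SE 0.12) in MYC mice, with single mice between -0.68 and -0.1 in MYC/REG3A and between -0.85 and -0.44 in MYC mice, and the MYC groups did not overlap. Sult1b1, known for thyroid hormones and small phenols, had 7.13, 7.86, 5.9 and 7.12 in MYC/REG3A tumours, against 7.22, 8.06, 7.66 and 7.08 in their non-tumour livers, and 5.92, 6.69, 7.31 and 5.04 in MYC tumours, against 6.91, 7.77, 6.51 and 7.46 in MYC non-tumour liver. It varied without a shared direction, since MYC mouse 3 had a change of 0.8 and MYC mouse 4 of -2.42, and its mean change was -0.5 (SE 0.442) in MYC/REG3A mice and -0.92 (SE 0.442) in MYC mice.

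Without MYC/REG3A mice 2 and 4, whose tumours stood apart, the MYC/REG3A change was -3.44 in Sult2a1, -2.68 in Sult2a2, -3.96 in Sult2a3, -6.30 in Sult3a1 and -1.22 in Sult5a1.

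Of the other sulfotransferase genes, 13 had a row and 6 were tested. Of these 6, 2 fell in MYC/REG3A tumours and 5 in MYC tumours, and none rose, at a limma adjusted p below 0.05, the threshold used for all counts. In the same fits 4.88% of all tested genes were lower and 7.58% higher in MYC/REG3A tumours, and 15.8% lower and 17.4% higher in MYC tumours. The median change of the 6 genes was -0.9 in MYC/REG3A and -1.38 in MYC mice, and over all tested genes it was -0.018 in MYC/REG3A and -0.026 in MYC mice. A low gene could be among those tested mainly through its non-tumour livers, which favours falls in these counts. Sult2a5, for example, reached 6.14 in MYC/REG3A non-tumour liver and at most 4.94 in MYC/REG3A tumours. Sult3a2, the neighbour of Sult3a1, had 2.91, 7.44, 2.82 and 5.43 in MYC/REG3A tumours, against 8.87, 8.45, 7.42 and 7.82 in their non-tumour livers, and 3.08, 2.84, 3.02 and 2.78 in MYC tumours, against 3.94, 7.98, 3.69 and 9.71 in MYC non-tumour liver. It was near background in the same 6 tumours as Sult3a1, and also in MYC non-tumour liver 3. Its change was -3.49 in MYC/REG3A mice (SE 1.06, limma adjusted p = 0.0587) and -3.4 in MYC mice (SE 1.06, limma adjusted p = 0.0345). With tumour values near background set to the lower quartile of their array, the tumours were at least 8.28-fold lower in MYC/REG3A mice. In MYC mice they were 6.1-fold lower, which is not a bound, since MYC non-tumour liver 3 was near background.

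Sult2a8, described in mouse as an enzyme for bile acids, had 5.79, 9.1, 9.02 and 9.26 in MYC/REG3A tumours, against 8.15, 9.8, 9.49 and 8.81 in their non-tumour livers, and 5.87, 7.55, 4.43 and 4.7 in MYC tumours, against 7.73, 9.13, 7.07 and 8.29 in MYC non-tumour liver. Only MYC/REG3A tumour 1 was far below its own non-tumour liver in that genotype, and the change was -0.77 (SE 0.418, limma adjusted p = 0.248), whereas it fell by 2.42 in MYC mice (SE 0.418, limma adjusted p = 0.00288). Sult2a5 fell by 1.82 in MYC/REG3A mice (SE 0.404, limma adjusted p = 0.0222) and fell by 1.18 in MYC mice (SE 0.404, limma adjusted p = 0.0472), and its MYC tumours were all 4 near background. Since 2 MYC/REG3A tumours of Sult2a5 were near background too, the data bound its fall only at 2.8-fold or more in MYC/REG3A mice. In MYC mice it was 1.3-fold with tumours set to the lower quartile. That is not a bound, since 2 MYC non-tumour livers were near background. Sult2a4 fell by 1.02 in MYC/REG3A (SE 0.246, limma adjusted p = 0.0277) and fell by 0.8 in MYC mice (SE 0.246, limma adjusted p = 0.0325). The oestrogen sulfotransferase gene Sult1e1 fell by 1.58 in MYC mice (SE 0.477, limma adjusted p = 0.0301) and had a change of -0.76 in MYC/REG3A mice (SE 0.477, limma adjusted p = 0.319). Sult1c2 had a change of 0.08 in MYC/REG3A (limma adjusted p = 0.833) and -0.32 in MYC mice (limma adjusted p = 0.281). The rows of Sult2a6, Sult6b1 and Sult6b2 were near background on all 16 arrays. The 2 falls in MYC/REG3A mice were 0 without MYC/REG3A mouse 1 and 0 without MYC/REG3A mouse 3. The 5 falls in MYC mice were 2 without MYC mouse 2, 2 without MYC mouse 3 and 1 without MYC mouse 4.

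**Figure D3:**
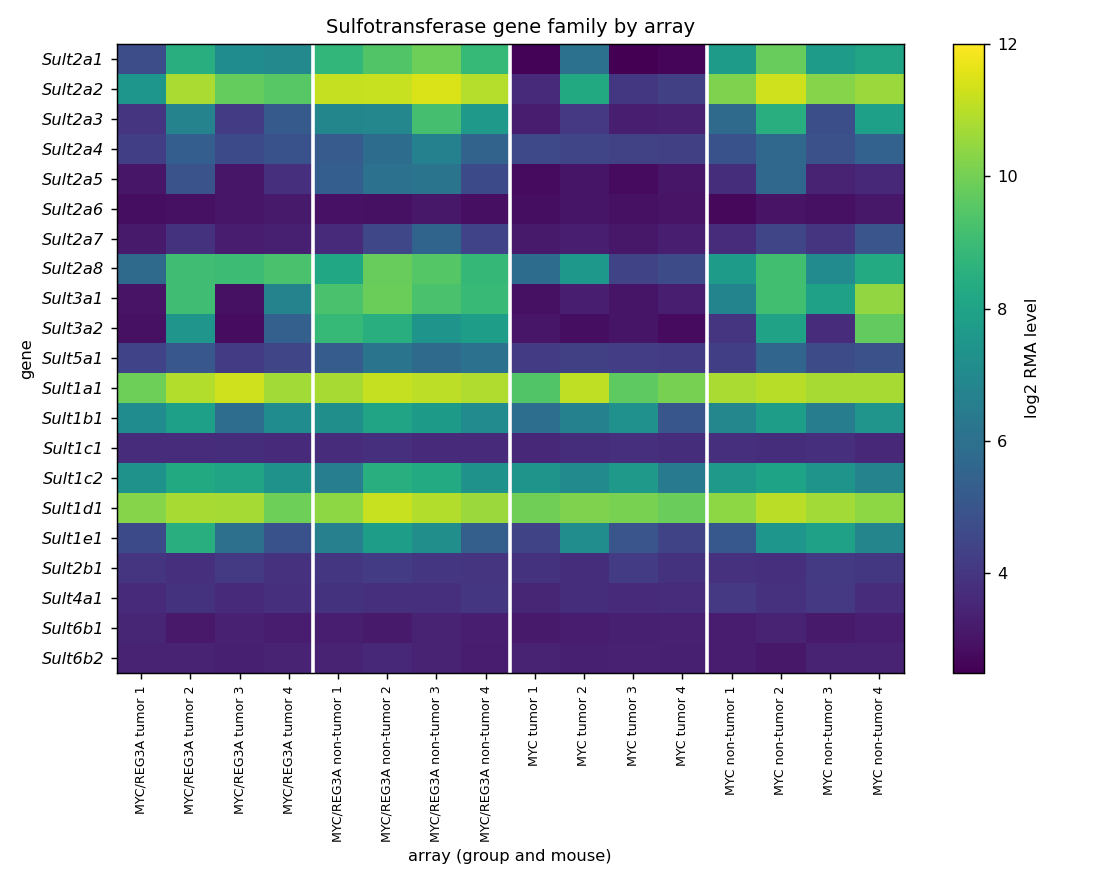
Log2 RMA level (colour) of 21 sulfotransferase genes (rows) on the 16 arrays (columns, ordered by group and mouse, with white lines between groups). Levels are to be compared along a row; the dark stretches of Sult2a1, Sult3a1 and Sult3a2 in MYC tumours are values near background, and Sult1a1 and Sult1d1 are bright on all 16 arrays.

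Of the listed genes of sulfate supply and of PAPS synthesis, transport and breakdown, few were called lower in tumours. Of 18 tested, 4 rose and 0 fell in MYC/REG3A tumours, and 5 rose and 1 fell in MYC tumours, with a median of -0.04 in MYC/REG3A and 0.12 in MYC mice. Slc26a6, an anion exchanger, rose by 1.1 in MYC/REG3A mice (SE 0.185, limma adjusted p = 0.00911) and by 1.75 in MYC mice (SE 0.185, limma adjusted p = 0.000554). Csad, which makes the taurine precursor hypotaurine, rose by 1.49 in MYC/REG3A mice (SE 0.299, limma adjusted p = 0.0164) and by 1.21 in MYC mice (SE 0.299, limma adjusted p = 0.0132). Bpnt1, the phosphatase that clears the spent donor PAP, rose by 0.76 in MYC/REG3A mice (SE 0.198, limma adjusted p = 0.0356) and by 0.96 in MYC mice (SE 0.198, limma adjusted p = 0.00567). Papss2, which makes PAPS, had a change of -0.67 in MYC/REG3A mice (SE 0.227, limma adjusted p = 0.0804) and fell by 0.74 in MYC mice (SE 0.227, limma adjusted p = 0.0316). Its paralog Papss1 had -0.04 in MYC/REG3A (limma adjusted p = 0.872) and -0.38 in MYC mice (limma adjusted p = 0.0503). Without MYC/REG3A mouse 1 the 4 rises in MYC/REG3A mice were 1, without mouse 3 they were 0, without mouse 4 they were 1, and without mice 2 and 4 they were 2. The 5 rises in MYC mice were 3 without MYC mouse 3 and 3 without MYC mouse 4. The 1 fall in MYC mice, that of Papss2, was 0 without MYC mouse 1, 2 or 4, and its tumour level was below that of the non-tumour liver in all 8 mice.

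The UDP-glucuronosyltransferases, which conjugate many of the same steroids and bile acids with glucuronic acid, fell in part. Of 11 tested genes of that list, 2 fell and 0 rose in MYC/REG3A tumours, and 7 fell and 1 rose in MYC tumours, with a median of -0.33 in MYC/REG3A and -1.06 in MYC mice. Ugt2a3 fell by 1.03 in MYC/REG3A (SE 0.176, limma adjusted p = 0.00977) and fell by 1.65 in MYC mice (SE 0.176, limma adjusted p = 0.000569). Ugt3a2 fell by 3.32 in MYC mice (SE 0.437, limma adjusted p = 0.00103). Of 21 tested bile acid and steroid genes, 3 fell and 0 rose in MYC/REG3A tumours, and 6 fell and 2 rose in MYC tumours. Hsd17b2, which inactivates oestradiol, fell by 0.94 in MYC/REG3A mice (SE 0.175, limma adjusted p = 0.0126) and fell by 1.47 in MYC mice (SE 0.175, limma adjusted p = 0.000833). The bile acid ligase gene Slc27a5 fell by 0.89 in MYC/REG3A mice (SE 0.201, limma adjusted p = 0.0228) and fell by 1.01 in MYC mice (SE 0.201, limma adjusted p = 0.00508). In the list of sulfatases and of transporters for sulfated compounds, Arsa, the lysosomal arylsulfatase A, rose by 2.37 in MYC/REG3A mice (SE 0.279, limma adjusted p = 0.00349) and by 2.17 in MYC mice (SE 0.279, limma adjusted p = 0.000976), while the uptake carrier Slco2b1 fell by 0.79 in MYC/REG3A (SE 0.166, limma adjusted p = 0.018) and fell by 1.15 in MYC mice (SE 0.166, limma adjusted p = 0.00141). Of its 13 tested genes, 1 rose and 1 fell in MYC/REG3A mice, and 3 rose and 2 fell in MYC mice.

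Female-biased liver genes fell more often than they rose. Of 29 tested female-biased genes, which leave out the sulfotransferases, 9 fell and 1 rose in MYC/REG3A tumours, and 20 fell and 1 rose in MYC tumours, with a median of -0.65 in MYC/REG3A and -1.51 in MYC mice. Cyp3a44, a female-biased cytochrome P450, fell by 2.62 in MYC/REG3A (SE 0.5, limma adjusted p = 0.0142) and fell by 4.59 in MYC mice (SE 0.5, limma adjusted p = 0.00061). The gene that rose in MYC/REG3A mice, Lpl, encodes lipoprotein lipase and rose by 2.09 in MYC/REG3A mice (SE 0.292, limma adjusted p = 0.00561). Of 22 tested male-biased genes, 5 fell and 1 rose in MYC/REG3A tumours, and 7 fell and 3 rose in MYC tumours, with a median of -0.18 in MYC/REG3A and -0.13 in MYC mice. The 5 falls of that list were 0 without MYC/REG3A mouse 1, 1 without mouse 3 and 3 without mouse 4. Mup3, a major urinary protein gene, fell by 4.48 in MYC mice (SE 0.608, limma adjusted p = 0.00115).

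Of 14 tested genes of growth hormone signalling, 5 fell and 0 rose in MYC/REG3A tumours, and 9 fell and 1 rose in MYC tumours. Cux2, a transcription factor of female liver that the female-biased list also holds, fell by 0.76 in MYC/REG3A mice (SE 0.171, limma adjusted p = 0.0228) and fell by 1.22 in MYC mice (SE 0.171, limma adjusted p = 0.00126). Igf1, which growth hormone induces, fell by 0.57 in MYC/REG3A mice (SE 0.122, limma adjusted p = 0.0195) and fell by 0.83 in MYC mice (SE 0.122, limma adjusted p = 0.0015). Of 16 tested nuclear receptor genes, 1 fell and 0 rose in MYC/REG3A tumours, and 4 fell and 1 rose in MYC tumours. Nr1i3, the xenobiotic receptor CAR, fell by 1.01 in MYC mice (SE 0.173, limma adjusted p = 0.00274), and Nr1i2, the related receptor PXR, rose by 0.62 (SE 0.209, limma adjusted p = 0.0459). Of 14 liver transcription factors, 1 fell in MYC/REG3A and 6 in MYC tumours, and Onecut1, which encodes HNF6, fell by 0.99 in MYC/REG3A (SE 0.281, limma adjusted p = 0.0471) and fell by 2.47 in MYC mice (SE 0.281, limma adjusted p = 0.000697). Without MYC/REG3A mouse 1, and likewise without MYC/REG3A mouse 3, the falls counted in MYC/REG3A tumours were 0 in the female-biased, growth hormone, nuclear receptor, liver factor, UDP-glucuronosyltransferase and bile acid lists. Without MYC/REG3A mouse 4 those of the growth hormone list were 1, those of the UDP-glucuronosyltransferase list 1 and those of the nuclear receptor list 0, while without MYC/REG3A mice 2 and 4 the female-biased list had 9 and the growth hormone list 6.

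Of the hepatocyte genes few fell, while of the endothelial and macrophage markers most did in the fits of all mice. Of 23 hepatocyte genes, 1 fell in MYC/REG3A and 2 in MYC tumours, and their mean level over the list was 11.64 to 11.88 in MYC/REG3A tumours against 11.83 to 11.95 in MYC/REG3A non-tumour liver, and 11.64 to 11.82 in MYC tumours against 11.74 to 11.84 in MYC non-tumour liver. Of 16 endothelial genes, 10 fell and 1 rose in MYC/REG3A tumours and 13 fell in MYC tumours, and their list means were 7.03 to 7.87 in MYC/REG3A tumours against 7.73 to 8.07 in MYC/REG3A non-tumour liver, and 7.2 to 7.37 in MYC tumours against 7.95 to 8.53 in MYC non-tumour liver. Of 18 macrophage genes, 11 fell in MYC/REG3A and 12 in MYC tumours, and of 18 stellate cell genes 5 fell in MYC/REG3A and 10 in MYC tumours. Of 11 lymphocyte genes 3 fell in MYC/REG3A and 4 in MYC tumours, and of 8 bile duct genes 0 fell and 1 rose in MYC/REG3A tumours while 4 fell in MYC tumours. The list means of macrophage genes were 6.52 to 7.54 in MYC/REG3A tumours against 7.65 to 8.41 in MYC/REG3A non-tumour liver, and 6.96 to 7.78 in MYC tumours against 7.48 to 8.93 in MYC non-tumour liver. Without MYC/REG3A mouse 1 the MYC/REG3A falls were 0 in the endothelial, 2 in the macrophage and 1 in the stellate list, and without MYC/REG3A mouse 3 they were 0, 1 and 1. Without MYC/REG3A mouse 4 they were 6 in the endothelial and 7 in the macrophage list. The lymphocyte falls in MYC/REG3A mice were 0 without MYC/REG3A mouse 1 and 0 without MYC/REG3A mouse 3. Without MYC mouse 4 the MYC falls of the macrophage list were 7, and without MYC mouse 1 those of the macrophage list were 8, those of the bile duct list 2 and those of the lymphocyte list 0. Without MYC mouse 2 those of the lymphocyte list were 2. The part of these other cells in the sulfotransferase falls was not tested.

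**Figure D4:**
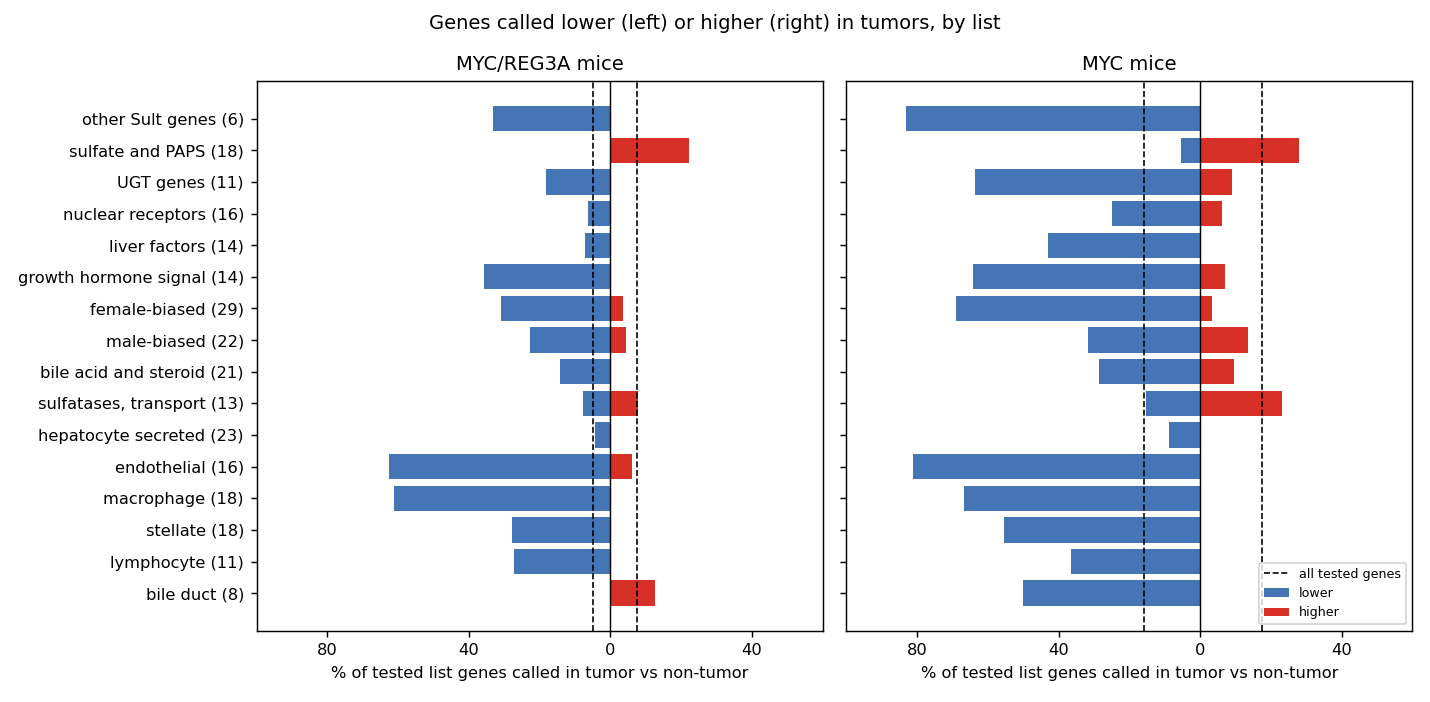
Share of the tested genes of each list (y axis, number tested in brackets) called lower (blue, to the left) or higher (red, to the right) in tumours against paired non-tumour liver (x axis, percent), with MYC/REG3A mice on the left and MYC mice on the right. Dashed lines give the shares over all tested genes, 4.88% lower and 7.58% higher in MYC/REG3A tumours and 15.8% lower and 17.4% higher in MYC tumours; the hepatocyte list lies inside them in both panels.

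The genotype comparison asks whether the REG3A transgene goes with another level of these genes. It shares its arrays with the tumour changes that chose the genes. All 8 genes were higher in MYC/REG3A than in MYC tumours by their means, beside 47.5% of all tested genes. Related genes of a mouse are not separate observations, so this is not 8 results. None of the 8 genes passed the threshold, beside 0.0221% of all tested genes (3 genes, Gas1, Lpcat4 and Trim43c, named after their values were seen). Sult2a2 had the highest difference of all 13555 genes, with tumour means of 9.4 ± 1.383 in MYC/REG3A and 5.07 ± 2.146 in MYC mice (SD, n = 4 each) and a difference of 4.34 (SE 0.819, limma adjusted p = 0.103). Sult2a1 averaged 6.84 ± 1.564 in MYC/REG3A and 3.44 ± 1.729 in MYC tumours (SD, n = 4 each), a difference of 3.4 (SE 0.811, limma adjusted p = 0.228). Since 3 of the MYC values were near background, this difference is a lower bound of 2.54, at least 5.8-fold, with those values set to the lower quartile of their array (limma adjusted p = 0.296). The groups overlapped for both genes because MYC tumour 2 lay above MYC/REG3A tumour 1.

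Both differences passed the threshold when MYC mouse 2 or MYC/REG3A mouse 1 was left out, the mice whose tumours made the groups overlap. Such fits take out the values that brought the groups closest, so they are no separate support. Without MYC mouse 2, the Sult2a1 values left in MYC tumours (2.59, 2.5 and 2.62) were all near background, so the size of that difference is uncertain. Over all tested genes, 3 to 114 were called with 1 mouse left out, against 3 with all mice. Without MYC mouse 2 the tumour difference was 4.26 in Sult2a1 (limma adjusted p = 0.0106) and 5.4 in Sult2a2 (limma adjusted p = 0.00125), and without MYC/REG3A mouse 1 it was 4.1 (limma adjusted p = 0.0354) and 4.97 (limma adjusted p = 0.0227). Without MYC/REG3A mice 2 and 4, whose tumours stood apart, it was 2.49 (limma adjusted p = 0.93) and 3.56 (limma adjusted p = 0.877). Sult3a1 differed by 2.3 (SE 1.07, limma adjusted p = 0.47), and without MYC/REG3A mice 2 and 4 by -0.18 (limma adjusted p = 0.997). With the MYC tumours, all near background, set to the lower quartile, Sult3a1 was 3.28-fold higher in MYC/REG3A tumours. This is not a lower bound, since MYC/REG3A tumours 1 and 3 were near background too. Sult2a3 differed by 1.53 (SE 0.768, limma adjusted p = 0.504), which is a bound of at least 2.31-fold with near-background values set to the quartile, and without MYC/REG3A mice 2 and 4 it differed by 0.58 (limma adjusted p = 0.985). The difference of the means of Sult5a1, Sult1a1, Sult1b1 and Sult1d1 was 0.33 to 0.76, with limma adjusted p between 0.478 and 0.665. At an unadjusted p below 0.05, 3 of the 8 genes and 10.6% of all tested genes were counted. The Myc row differed by 0.74 (SE 0.453, limma adjusted p = 0.58).

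In non-tumour liver the 8 means were again higher in MYC/REG3A than in MYC mice, by 0.13 to 0.97. So were the means of 48.9% of all tested genes. By limma, 0 of the 8 genes and 0.0% of all tested genes were called. At an unadjusted p below 0.05, 1 of the 8 genes and 5.45% of all tested genes were counted. That gene was Sult5a1, with means of 5.82 ± 0.401 in MYC/REG3A and 4.84 ± 0.565 in MYC non-tumour liver (SD, n = 4 each) and a difference of 0.97 (SE 0.255, limma adjusted p = 0.904). The Sult2a genes and Sult3a1 differed by 0.6 to 0.93, with limma adjusted p = 0.999 each. The groups overlapped for all 8 genes, and the Myc row differed by 0.29 (limma adjusted p = 0.999).

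The mean of the tumour and non-tumour value of each mouse does not use the difference between its samples, by which the genes were chosen. It is still not independent of that choice, since the tissues did not vary alike. For Sult2a2 in MYC/REG3A mice the SD was 1.383 in tumours and 0.213 in non-tumour liver. For Sult3a1 in MYC mice it was 0.199 and 1.578. By this measure 0 of the 8 genes and 0.0% of all tested genes were called by limma, while at an unadjusted p below 0.05 there were 4 of the 8 genes, against 8.87% of all tested genes. The differences were 2.47 in Sult2a2 (SE 0.612, limma adjusted p = 0.343), 2.17 in Sult2a1 (SE 0.674, limma adjusted p = 0.442), 1.22 in Sult2a3 (SE 0.492, limma adjusted p = 0.54) and 0.65 in Sult5a1 (SE 0.197, limma adjusted p = 0.441). Sult3a1 differed by 1.52 (SE 0.746, limma adjusted p = 0.601), and without MYC/REG3A mice 2 and 4 by 0.25 (limma adjusted p = 0.984). Sult1a1, Sult1b1 and Sult1d1 differed by 0.28 to 0.55, and all 8 means were higher in MYC/REG3A mice, beside 46.9% of all tested genes. With values near background set to the lower quartile the difference was 1.73 in Sult2a1, 1.06 in Sult2a3 and 1.42 in Sult3a1. The Myc row differed by 0.52 (SE 0.408, limma adjusted p = 0.742).

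The difference of the tumour change between the genotypes was tested directly. It is formed from the tumour changes that chose the genes, so its values, ranks and counts for the 8 genes are no independent support. This difference was above 0, meaning a smaller fall in MYC/REG3A mice, in 7 of the 8 genes, beside 49.3% of all tested genes. Of the 8 genes, 0 passed, beside 0.00738% of all tested genes (1 gene, Trim43c, named after its values were seen). Sult2a2 had the highest value of all 13555 genes, 3.73 (SE 0.846, limma adjusted p = 0.873), and Sult2a1 had 2.47 (SE 0.616, limma adjusted p = 0.873). With values near background set to the lower quartile, Sult2a1 had 1.61 (limma adjusted p = 0.872), Sult2a3 0.30 (limma adjusted p = 0.98) and Sult3a1 1.37 (limma adjusted p = 0.896). Sult5a1 was the exception in sign, with -0.65 (SE 0.269, limma adjusted p = 0.873). Sult3a1 had 1.56 (SE 1.25, limma adjusted p = 0.897), and Sult2a3 had 0.62 (SE 0.979, limma adjusted p = 0.95). At an unadjusted p below 0.05, 3 of the 8 genes and 5.58% of all tested genes were counted. The Myc row had 0.45 (SE 0.179, limma adjusted p = 0.873).

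**Figure D5:**
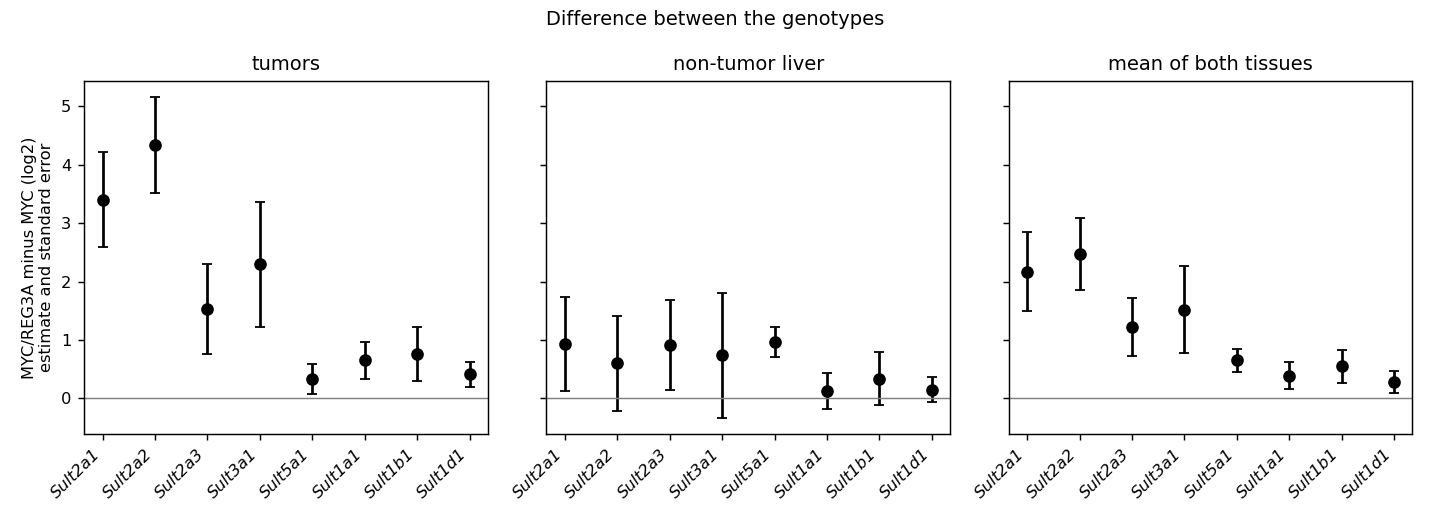
MYC/REG3A minus MYC difference (log2, y axis) of the 8 genes (x axis) in tumours, in non-tumour liver and in the mean of both tissues of a mouse; points are limma estimates and bars are standard errors, with 4 mice per genotype. All estimates lie above 0, from 0.13 for Sult1a1 in non-tumour liver to 4.34 for Sult2a2 in tumours, and 0 of them pass an adjusted p of 0.05. Of all tested genes, 47.5% lie above 0 in tumours, 48.9% in non-tumour liver and 46.9% in the mean of both tissues.

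Over the 16 arrays, the genes whose level was most like the averaged z-scored level of Sult2a1, Sult2a2, Sult2a3 and Sult3a1 were Lrtm1 (Pearson r = 0.979), Cyp3a44 (0.978), Cdadc1 (0.959), Igf1 (0.956) and Pon1 (0.953). Within the 8 tumours r was 0.981 for Lrtm1 and 0.953 for Cyp3a44, and within the 8 non-tumour livers it was 0.827 and 0.906. For the other 4 genes the 2 most alike were Mup-ps12 (0.917) and Eci3 (0.915) for Sult5a1, Apom (0.927) and Ndfip1 (0.92) for Sult1a1, Slc18a1 (0.917) and Pir (0.896) for Sult1b1, and Smc6 (0.914) and Alg11 (0.892) for Sult1d1. For Apom and Sult1a1 the value was 0.951 within tumours and -0.071 within non-tumour livers. These correlations describe the arrays, which share mice, tissue and normalisation, and carry no test.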

How the data were processed

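RNA of 16 samples was measured on mouse Affymetrix arrays. Per the submitters' processing notes, the authors made the deposited values in Affymetrix Expression Console 1.4.1 by RMA. The log2 unit of the deposited values was read from their range; the array build, detection calls, scan dates and batches are not given in the sources used here. RMA equalises the arrays (means 5.43 to 5.47), so changes are relative to other genes.

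Of 41345 rows, 23521 had 1 symbol, 1814 several and 16010 none, and 23328 rows matched RefSeq by Entrez ID. The row with the highest mean stood for a gene. Of 22180 genes, 13555 exceeded their array's median on at least 4 arrays and were tested. No 2 arrays were identical (0 pairs). 

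Tests were 2-sided and used lmFit and eBayes of limma 3.58.1 under R 4.3.3, with Benjamini-Hochberg adjustment over all tested genes and a threshold of 0.05; n was 4 mice per genotype. Tumour changes and their difference had the mouse as a block, since the titles give both samples of a mouse the same number; deviations of a pair correlated at 0.0963 to 0.3255. Genotype comparisons used 4 group means, or each mouse's mean of both samples. The fit was tested on simulated data. Alternatives were fits without the block or with a random block, no filter, the mean of a gene's rows, array weights, centred arrays, floored values, and left-out mice. The number of arrays limits the precision.

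The genes and lists were chosen with earlier results of these data known. Named were all 8 genes, Myc, up to 4 genes of lowest p per list, any other sulfotransferase or PAPS gene, and the genes of highest correlation. Sequences come from RefSeq tables of GRCm38.p6, searched with Python 3.11.15. Protein sequences were not used here.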

Additional observations from a re-analysis of the deposited data

Results flagged for a closer look

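In 56 groups of 4 arrays, over the 14 sulfotransferase genes tested, the highest or lowest value was set against the others, and in 5 groups its gap to the nearest value exceeded Dixon's critical share of the range of the group. For normal values chance gives about 1 such group in 20, so some of the 5 may be chance. The Sult2a rows of an array are not independent, and 3 of the 4 MYC tumour values of Sult2a1 were near background. MYC mouse 2 gave 4 of the 5. Its tumour had the highest Sult2a1 level of the MYC tumours, 6.03 with the next at 2.62, and the highest Sult2a2 level, 8.26 with the next at 4.29. Its non-tumour liver had the highest Sult2a1 level of the MYC non-tumour livers, 9.8 with the next at 8.04, and the highest Sult2a5 level, 5.69 with the next at 3.75. The tumour of MYC/REG3A mouse 1 had the lowest Sult2a8 level of its group, 5.79 with the next at 9.02.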

How the results depend on the processing

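The mouse as a block changed no call of the 8 genes between genotypes. With no replicate block, 1613 genes in MYC/REG3A and 4419 in MYC mice were called in tumours, against 1690 and 4505 with it, and 0 genes were called for the difference of the changes. Leaving out 1 mouse gave 273 to 1849 genes in MYC/REG3A and 2974 to 4490 in MYC mice. MYC/REG3A mice 1, 3 and 4 moved the MYC/REG3A count most (281, 273 and 944 without them), and MYC mouse 4 the MYC count (2974). For the difference of the changes, 1 gene was called and leaving out 1 mouse gave 0 to 2; no filter gave 0, array weights 3, centred arrays 3 and the fit without MYC/REG3A mice 2 and 4 gave 0. Between genotypes, leaving out 1 mouse gave 0 to 22 genes in non-tumour liver (22 without MYC mouse 2) and 3 to 114 in tumours (21 without MYC mouse 2, 13 without MYC mouse 3, 114 without MYC/REG3A mouse 1), and the tumour count was 0 without MYC/REG3A mice 2 and 4. For the mean of both tissues, no filter gave 2 and array weights 1.

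Of 720 recomputed values of the 8 genes, 707 were counted as unchanged. Differences between genotypes counted so if they kept their sign and their side of the threshold. Tumour changes counted so if they kept their sign and moved by less than the SD over mice. The side of the threshold was not compared for tumour changes. The sign of the difference of the changes turned for Sult2a3 without MYC/REG3A mouse 2 (-0.20) and without MYC/REG3A mice 2 and 4 (-0.71), for Sult3a1 without these 2 (-0.86), and for Sult1b1 without MYC mouse 4 (-0.077) and without MYC/REG3A mice 2 and 4 (-0.0029). With 1 mouse left out this difference ran from -0.20 to 1.42 in Sult2a3 and from -0.077 to 0.995 in Sult1b1. The tumour genotype difference of Sult3a1 turned without MYC/REG3A mice 2 and 4 (-0.18), and the non-tumour difference of Sult1d1 was 0.0 without MYC/REG3A mouse 2, and at most 0.281 with 1 mouse left out. With array weights, the tumour genotype difference of Sult2a2 was 4.81 (limma adjusted p = 0.0322). With values near background set to the lower quartile, the Sult2a1 change in MYC mice was -4.02. The cause of these shifts was not tested.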
